A study of Mus musculus with 20 samples.

Results

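The 41 genes described here are genes of vascular endothelium and of vessel growth, chosen by name: a gene belonged if the probe set annotation gave a probe set its symbol alone. They are 41 of 21423 genes with such a probe set, and all 41 passed the filter on dim probe sets, as members of the 16739 genes tested. By role they comprise 6 adhesion molecules that bind leukocytes, 15 genes of endothelial identity and junctions, 5 receptors of blood vessel growth, 4 endothelial transcription factors, 5 genes of lymphatic vessels and 6 secreted ligands. Expression was measured on 20 arrays of total RNA from the middle part of the colon, 1 array per mouse, in female C57BL/6JOlaHsd mice about 11 weeks old, 4 mice in each of 5 groups. The cyclosporine colitis mice (4, 7, 9 and 10 by number) had 3% dextran sulphate sodium (DSS), an agent toxic to the colon's epithelial lining, in their drinking water over 5 days and took the calcineurin inhibitor cyclosporine A by mouth at 25 mg/kg every day from day 1 to day 15. The probiotic colitis mice (3, 5, 7 and 8) received DSS together with a mixture of the bacterial strains L930BB and IM386, which was also given before DSS began. The untreated colitis mice (5, 6, 7 and 10) received DSS and saline. The probiotic healthy mice (4, 5, 6 and 7) received the bacterial mixture without DSS, and the untreated healthy mice (2, 4, 6 and 7) saline without DSS. DSS is thus shared by all 3 colitis groups, and no healthy group took cyclosporine A. Where 4 values are listed for a group, they follow its mouse numbers as just given.

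Blood endothelium lines every vessel of the gut wall and is held together by junction proteins such as VE-cadherin. In inflamed colon the endothelium of venules displays selectins, which slow passing leukocytes, and members of the immunoglobulin family, which stop them by binding leukocyte integrins. Lymphatic endothelium, which carries fluid and cells away from the tissue, is specified by the transcription factor Prox1 and depends on Vegfc acting through the receptor Flt4, whereas growth of blood vessels depends on Vegfa acting through Kdr and is stabilised by angiopoietin 1 acting through Tek.

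Values are log2 RMA expression of a probe set, and differences are log2 differences ± standard error of the limma fit over all 20 arrays, with p-values adjusted by Benjamini-Hochberg over 16739 genes, n = 4 mice per group. A gene is said to have risen or fallen where the adjusted p was under 0.05. The levels of different probe sets are not set against each other. Array medians lay between 6.22 and 6.29, so the arrays were on a common scale, and 37 of the 41 genes exceeded the filter level of 5.30 on all 20 arrays. The endothelial markers Pecam1, which leukocytes also express, and Cdh5 were well above it in each group. Their array values were 8.08 to 8.49 and 8.32 to 8.67 in untreated healthy mice, so endothelial RNA was present in the tissue. Dim genes were the E-selectin gene Sele and the multimerin gene Mmrn1, each above 5.30 on 5 of 20 arrays, the apelin gene Apln on 15 and the angiopoietin gene Angpt2 on 19, and small changes of these 4 are compressed by background. For Sele and Mmrn1 those 5 arrays were all of colitis mice, so both entered the test only through colitis groups. Mmrn1 passed in no comparison but is part of the lymphatic counts, medians and means, which carry this limit. Mouse 8 of probiotic colitis, mouse 6 of untreated colitis and mouse 2 of untreated healthy were the lowest of their own groups for many vessel genes, as the heat map of the 41 genes shows. They are called the mice that stood apart, and results resting on them are given with and without them. They were picked with these values known, and leaving out a low mouse raises its group's mean. Fits without them therefore describe how counts depend on these mice and are no independent check.

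**Figure D1:**
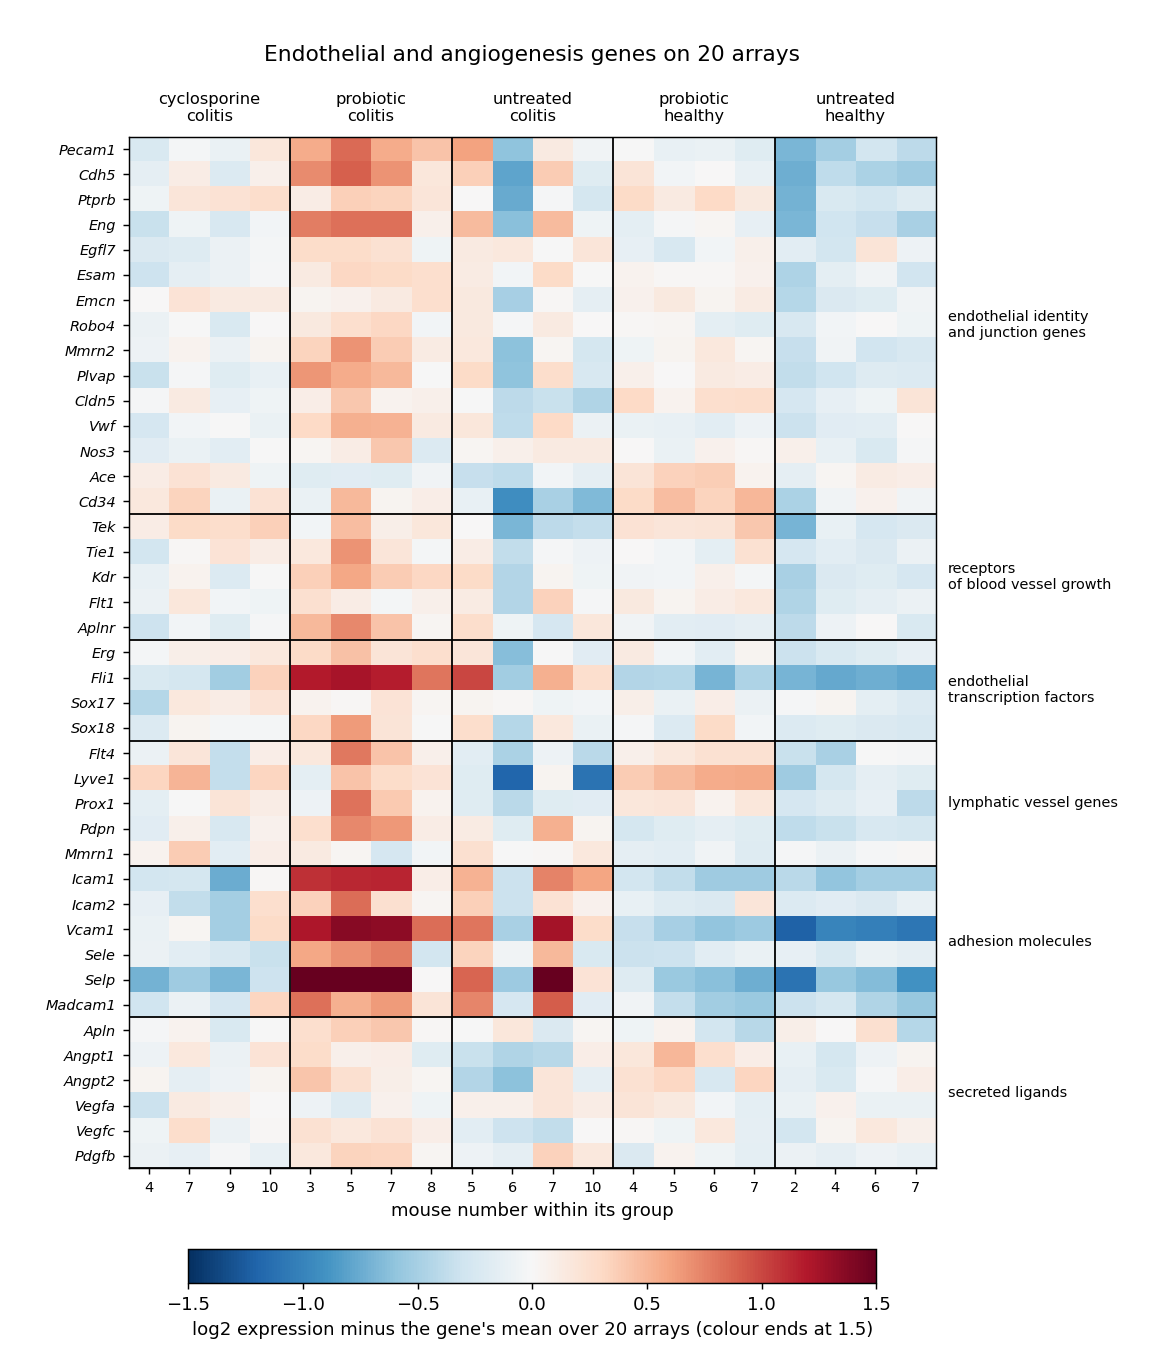
Log2 expression of the 41 genes on 20 arrays, each gene shown relative to its own mean over the arrays, with mice in columns by group and genes in rows by role. Fli1 and Icam1 are highest in probiotic colitis mice 3, 5 and 7, Selp and Madcam1 in untreated colitis mouse 7, and untreated colitis mouse 6 and untreated healthy mouse 2 are low for many genes.

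Of the 6 adhesion molecule genes, 4 had a promoter window in the RefSeq table for the assembly GRCm38.p6. The 3 shown are those that hold an NF-kB-like word, which is only one form of such sites. They are shown for the match, and a link between match and expression was not tested. NF-kB is the factor known to switch on endothelial adhesion molecules in response to cytokines. The windows cover the 250 bases before the annotated start, 5′ to 3′ on the plus strand of the genome, and the capitals mark each match to the word GGNNTTTCC read on either strand. They are those of Icam1 at chr9:21015690-21015939, Madcam1 at chr10:79664309-79664558 and Selp at chr1:164115014-164115263.
Icam1: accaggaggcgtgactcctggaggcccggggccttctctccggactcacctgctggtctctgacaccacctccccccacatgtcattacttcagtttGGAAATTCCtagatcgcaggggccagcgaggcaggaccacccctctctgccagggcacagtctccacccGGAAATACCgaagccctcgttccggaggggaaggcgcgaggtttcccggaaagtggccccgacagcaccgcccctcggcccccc
Madcam1: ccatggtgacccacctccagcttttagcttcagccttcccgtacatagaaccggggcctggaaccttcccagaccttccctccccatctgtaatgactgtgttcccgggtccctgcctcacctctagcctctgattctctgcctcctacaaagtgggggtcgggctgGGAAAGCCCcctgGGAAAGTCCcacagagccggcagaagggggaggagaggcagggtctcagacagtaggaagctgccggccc
Selp: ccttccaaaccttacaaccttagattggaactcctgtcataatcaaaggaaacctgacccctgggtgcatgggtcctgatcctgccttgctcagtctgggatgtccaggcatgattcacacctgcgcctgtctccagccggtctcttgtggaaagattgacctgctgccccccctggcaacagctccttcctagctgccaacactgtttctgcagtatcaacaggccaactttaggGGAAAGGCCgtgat

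Icam1 held 2 matches, 153 to 145 and 84 to 76 bases before the start, Madcam1 also 2, 83 to 75 and 70 to 62 bases before it, and Selp 1, 14 to 6 bases before it. Sele, the remaining gene with a window, had no match to this word, and other forms of NF-kB site were not searched for. Although near background, Sele was itself called higher by limma in probiotic colitis than in probiotic healthy mice. Vcam1 and Icam2 had no window in the table. The word occurred in 1619 of 32851 promoter windows of this length (4.93%) and in 5 of the 30 windows of the 23 genes described here that had one (16.7%), the other 2 genes being Egfl7 and Mmrn1. The word ACAGGAAG, a motif of ETS factors such as Erg and Fli1, occurred in 952 windows (2.90%) and in 4 of these 30 (13.3%), in Sele, Egfl7 and Emcn, and the second ETS word, CCGGAAGT, in 945 windows (2.88%) and in 0 of 30. These words share the core GGAA, but in these windows no match to one overlapped a match to another. A match describes letters and is not evidence of binding.

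The comparison of untreated colitis with untreated healthy mice asks what DSS does to these genes, and several adhesion molecules were higher in the mice with colitis. Of the 41 genes, 8 rose and 1 fell, against 11.7% of all genes that rose and 14.4% that fell. Adhesion molecules accounted for 4 of the 8, and 2 of the 6 did not pass. Vcam1, the endothelial ligand of the integrin of Itga4 and Itgb1, stood at 9.02, 7.73, 9.46 and 8.49 in untreated colitis mice, against 7.01, 7.23, 7.19 and 7.13 in untreated healthy mice. Every colitis mouse lay above every healthy one, mouse 6 the least, and Vcam1 rose by 1.54 ± 0.25 (2.90-fold, adjusted p = 0.000208). Icam1, a ligand of the leukocyte integrin LFA-1, measured 8.08, 7.24, 8.30 and 8.14 in untreated colitis mice and 7.15, 6.96, 7.04 and 7.04 in untreated healthy mice. Only colitis mouse 6 came close to the healthy mice, and the rise was 0.89 ± 0.22 (1.85-fold, adjusted p = 0.00629). Selp, the P-selectin of endothelium and platelets, gave 7.98, 6.56, 9.13 and 7.31 in untreated colitis and 6.00, 6.54, 6.46 and 6.20 in untreated healthy mice. Colitis mouse 7 was far the highest and mouse 6 almost level with the highest healthy mouse, and the rise was 1.45 ± 0.40 (2.72-fold, adjusted p = 0.0124). Madcam1, the gut addressin that binds the integrin of Itga4 and Itgb7, was 7.86, 6.87, 8.04 and 6.96 in untreated colitis mice, against 6.80, 6.86, 6.67 and 6.56 in untreated healthy mice. Mice 5 and 7 carried most of the difference, mice 6 and 10 lying just above the healthy range, and Madcam1 rose by 0.71 ± 0.22 (1.63-fold, adjusted p = 0.0223). The other 2, Sele (0.28 ± 0.17) and the constitutive LFA-1 ligand Icam2 (0.26 ± 0.17), did not pass and their groups overlapped. Sele exceeded 5.30 on 5 arrays, all of colitis mice (untreated mice 5 and 7 and probiotic mice 3, 5 and 7), so it entered the test through the groups where it was high and its results support no count. The median difference over the 6 genes was 0.80, and 0.89 without Sele, beside -0.03 over all genes. RNA of the whole colon wall was measured, so more cells of a type and more RNA per cell cannot be told apart in any of these results.

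**Figure D2:**
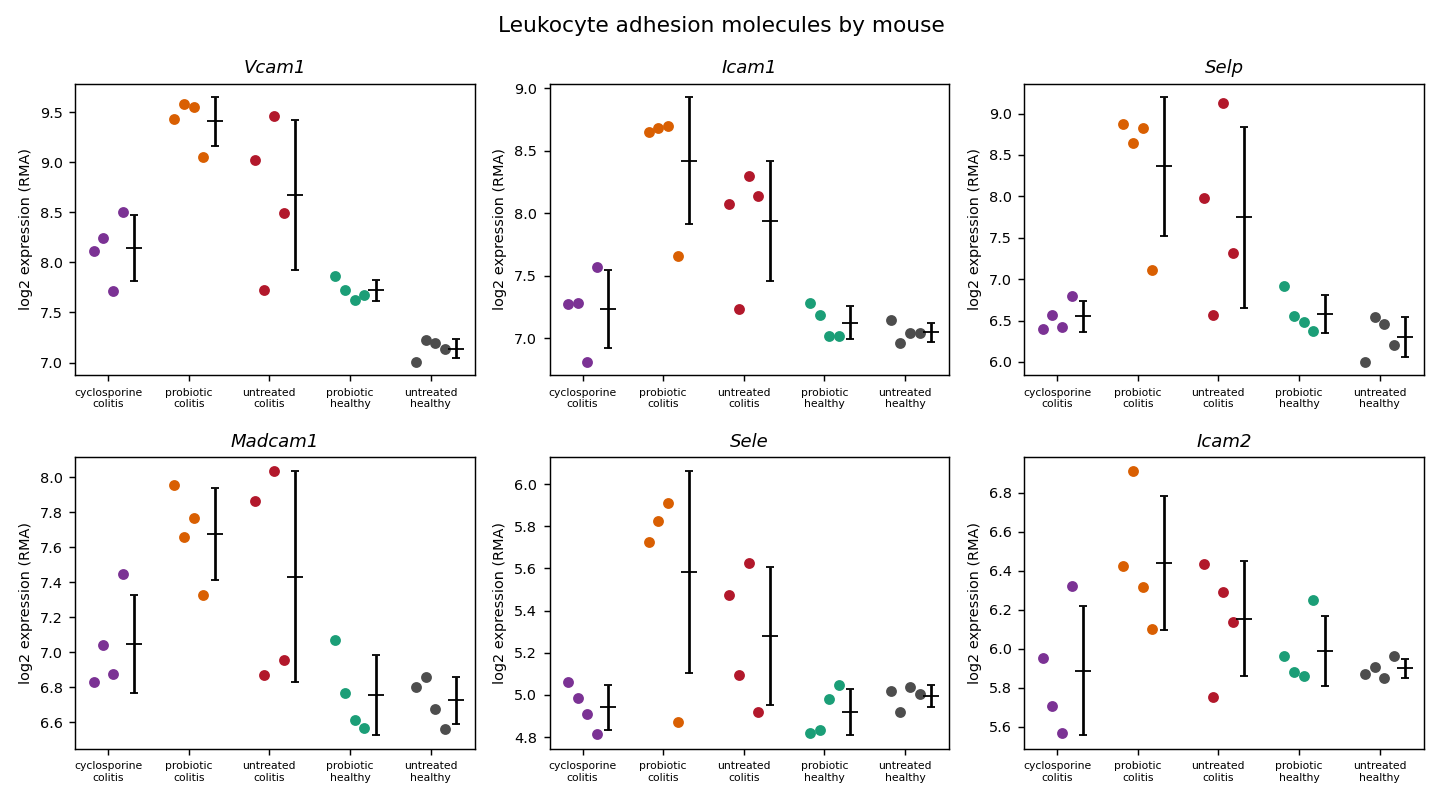
Log2 expression of the 6 adhesion molecules by mouse, points in the order of the mouse numbers of each group, with the group mean and SD (n = 4) as a bar beside them. Vcam1, Icam1, Selp and Madcam1 are higher in every untreated colitis mouse than in any untreated healthy mouse, probiotic colitis mouse 8 is lowest of its group for all 6, and the axes differ between genes and do not start at 0.

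Leukocyte genes moved with the adhesion molecules. All 7 tested leukocyte partners of these molecules (of 8 listed) rose, with a median of 1.17, among them the integrin genes Itgal, Itgb2, Itgam, Itga4 and Itgb7 and the P-selectin ligand gene Selplg. All 6 pan-leukocyte markers rose too, with a median of 1.47. Their mean on an array ranged 8.44 to 9.96 in untreated colitis and 7.51 to 7.85 in untreated healthy mice, and mouse 6 had the lowest of the colitis means, as it had for the adhesion molecules. Of 5 platelet and megakaryocyte markers, which could bring in Selp, 0 passed in either direction by limma, 0 at an unadjusted p under 0.05 upward and 1 downward. The part of leukocytes in the change of the genes they also express, such as Icam1, Pecam1 and Fli1, was not tested. Smooth muscle markers fell in 7 of 8 (median -0.55), with array means of 10.42 to 10.79 in untreated colitis and 11.12 to 11.22 in untreated healthy mice, and their part was not tested.

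Few genes of endothelial identity passed. Of 15, the adhesion gene Pecam1 and the junction gene Esam rose and Ace fell, 12 not passing, with a median of 0.16. Esam stood at 6.61, 6.44, 6.77 and 6.48 in untreated colitis mice, against 6.02, 6.35, 6.44 and 6.20 in untreated healthy mice. The groups were all but touching, at mouse 6 of each, and Esam rose by 0.33 ± 0.09 (1.26-fold, adjusted p = 0.0100). Pecam1 was 9.37, 8.17, 8.90 and 8.71 in untreated colitis and 8.08, 8.26, 8.49 and 8.38 in untreated healthy mice. Colitis mouse 6 lay among the healthy mice, and the rise was 0.49 ± 0.17 (1.40-fold, adjusted p = 0.0394). Ace, the angiotensin converting enzyme that gut epithelium also makes, was 8.85, 8.81, 9.15 and 9.05 in untreated colitis mice and 9.06, 9.22, 9.32 and 9.28 in untreated healthy mice. The groups overlapped, and Ace fell by 0.25 ± 0.09 (adjusted p = 0.0409). The progenitor and capillary marker Cd34, also made by fibroblasts, was close to the threshold in the other direction from Pecam1 (-0.42 ± 0.15 (adjusted p = 0.0535)), and the TGF-beta co-receptor Eng close to it upward (0.52 ± 0.20 (adjusted p = 0.0576)). The junction genes Cdh5 (0.47 ± 0.20) and Cldn5 (-0.24 ± 0.11), the diaphragm gene Plvap (0.20 ± 0.16), the clotting factor gene Vwf (0.16 ± 0.12) and the nitric oxide synthase gene Nos3 (0.16 ± 0.10) did not pass. Neither did the phosphatase gene Ptprb, the sialomucin gene Emcn, the guidance receptor gene Robo4, the matrix gene Mmrn2 or Egfl7, whose differences lay between 0.06 and 0.20.

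Among the 4 transcription factors, the ETS factor Fli1 rose, while its relative Erg and the SOX factors Sox17 and Sox18 did not pass (0.06 ± 0.12, 0.07 ± 0.11 and 0.19 ± 0.14). Fli1, which leukocytes and platelets also express, stood at 10.06, 8.54, 9.60 and 9.32 in untreated colitis mice and 8.36, 8.30, 8.33 and 8.29 in untreated healthy mice. The healthy mice were within a narrow band below every colitis mouse, and the rise was 1.06 ± 0.22 (2.08-fold, adjusted p = 0.00168). Of the 5 lymphatic genes, Pdpn, which fibroblasts and macrophages also make, rose alone. Its values were 8.89, 8.58, 9.30 and 8.80 in untreated colitis mice, against 8.38, 8.43, 8.52 and 8.50 in untreated healthy mice, and it rose by 0.44 ± 0.14 (1.35-fold, adjusted p = 0.0230). The groups did not overlap, and mouse 7 was highest. Fibroblast markers rose in 3 of 8 (median 0.26), with array means of 8.96 to 9.64 in untreated colitis and 8.95 to 9.22 in untreated healthy mice. Macrophage markers rose in 4 of 9 (median 0.53), with array means of 7.87 to 9.0 in untreated colitis and 7.85 to 7.98 in untreated healthy mice, and the part of both cell types in the rise of Pdpn was not tested. Lyve1, the hyaluronan receptor of lymphatic endothelium and of some macrophages, ranged 8.52 to 9.74 in untreated colitis and 9.17 to 9.57 in untreated healthy mice, mice 6 and 10 of the colitis group being well below mice 5 and 7, and its difference of -0.33 ± 0.23 did not pass. Flt4 (-0.07 ± 0.15), Prox1 (0.00 ± 0.14) and Mmrn1 (0.13 ± 0.10) did not pass either, and the median of the 5 was 0.00. None of the 5 receptors of blood vessel growth and none of the 6 ligands passed by limma, with 1 and 0 of them at an unadjusted p under 0.05. The receptor differences lay between -0.04 for Tek and 0.24 for Kdr, and the ligand differences between -0.21 for Vegfc and 0.18.

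Of 19 other endothelial genes tested, 3 rose and 1 fell. The ETS factor gene Ets1 (0.90 ± 0.19) and the sphingosine phosphate receptor gene S1pr1 (0.82 ± 0.25), both also lymphocyte genes, and Cd93 (0.37 ± 0.12) rose, and the endothelial lectin gene Clec14a fell (-0.45 ± 0.10). Of 19 other genes of the VEGF, angiopoietin and apelin pathways, the Notch receptor gene Notch4 rose (0.25 ± 0.08), and the co-receptor gene Nrp2 (-0.56 ± 0.10) and the ligand gene Vegfb (-0.23 ± 0.08) fell. Without the 3 mice that stood apart, 13 of the 41 genes rose and 0 fell, against 12.3% and 14.4% of all genes. The count of genes that rose was 13 without untreated colitis mouse 6 alone and 5 without mouse 7. Leaving out 1 mouse lost the calls of Pecam1 without any one of untreated colitis mice 5, 7 and 10 and untreated healthy mice 2, 4 and 7 (adjusted p = 0.0566 to 0.156), of Ace without any one of untreated colitis mice 5 and 6 and untreated healthy mice 4, 6 and 7 (adjusted p = 0.0707 to 0.119), of Madcam1 without any one of untreated colitis mice 5 and 7 and untreated healthy mouse 7 (adjusted p = 0.0616 to 0.0912) and of Pdpn without any one of untreated colitis mouse 7 and untreated healthy mouse 2 (adjusted p = 0.0543 to 0.0952). Vcam1, Icam1, Selp, Fli1 and Esam kept theirs in all 8 such fits. With these 2 groups fitted alone 5 genes rose, the calls of Pecam1, Esam, Madcam1 and Ace being lost (adjusted p = 0.0609 to 0.142).

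The same colitis contrast was drawn in mice given the probiotic mixture, and it moved more of these genes. In probiotic colitis against probiotic healthy mice, 16 of the 41 rose and 1 fell, against 13.6% of all genes that rose and 16.1% that fell, with Vcam1, Icam1, Selp and Madcam1 among the 16. Vcam1 measured 9.44, 9.59, 9.56 and 9.05 in probiotic colitis mice and 7.87, 7.72, 7.62 and 7.67 in probiotic healthy mice. The groups lay far apart, and Vcam1 rose by 1.69 ± 0.25 (3.22-fold, adjusted p = 4.38e-05). Icam1 was 8.65, 8.68, 8.70 and 7.66 in probiotic colitis mice, against 7.28, 7.19, 7.01 and 7.01 in probiotic healthy mice. Mouse 8 stood between the healthy mice and the other 3, and Icam1 rose by 1.30 ± 0.22 (2.46-fold, adjusted p = 0.000202). Selp was 8.87, 8.64, 8.82 and 7.11 in probiotic colitis mice, against 6.91, 6.55, 6.48 and 6.38 in probiotic healthy mice. Mouse 8 was again the low one, next to the highest healthy mouse, and Selp rose by 1.78 ± 0.40 (3.44-fold, adjusted p = 0.00223). Sele was 5.72, 5.83, 5.91 and 4.87 in probiotic colitis and 4.82, 4.83, 4.98 and 5.05 in probiotic healthy mice. Sele was under 5.30 in all healthy mice and in probiotic colitis mouse 8, so it had a bound there, at least 1.22-fold higher in probiotic colitis mice (means of 5.58 and 4.92, limma adjusted p = 0.00693). The bound sets the mean of the 4 colitis mice against 5.30, and without Sele, which entered the test only through colitis arrays, 15 of 40 genes and 4 of 5 adhesion molecules rose. Madcam1 was 7.96, 7.66, 7.77 and 7.32 in probiotic colitis mice, against 7.07, 6.77, 6.61 and 6.56 in probiotic healthy mice. The groups did not overlap, and the rise was 0.92 ± 0.22 (1.90-fold, adjusted p = 0.00323). Icam2 (0.45 ± 0.17 (adjusted p = 0.0541)) did not pass.

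Fli1 stood at 10.26, 10.29, 10.23 and 9.86 in probiotic colitis mice, against 8.62, 8.63, 8.36 and 8.60 in probiotic healthy mice. Of the 41 genes it had the smallest adjusted p in this comparison, rising by 1.61 ± 0.22 (3.05-fold, adjusted p = 2.56e-05). Pdpn was 9.01, 9.48, 9.41 and 8.88 in probiotic colitis and 8.50, 8.59, 8.62 and 8.58 in probiotic healthy mice. It rose by 0.63 ± 0.14 (1.54-fold, adjusted p = 0.00161) and was the single lymphatic gene of 5 to do so. The apelin receptor gene Aplnr, of sprouting and venous endothelium, was 7.45, 7.69, 7.39 and 7.00 in probiotic colitis mice, against 6.91, 6.81, 6.80 and 6.83 in probiotic healthy mice. Aplnr rose by 0.54 ± 0.13 (1.46-fold, adjusted p = 0.00324) and Kdr, the main VEGF receptor of blood endothelium, by 0.42 ± 0.11 (1.34-fold, adjusted p = 0.00799), without overlap of the groups in either case. The ligands Apln (0.43 ± 0.13), which binds Aplnr, and Pdgfb (0.30 ± 0.09), which recruits pericytes, rose with overlapping groups. Identity genes that rose were Pecam1 (0.70 ± 0.17 (1.62-fold, adjusted p = 0.00375)), Vwf (0.48 ± 0.12 (1.40-fold, adjusted p = 0.00416)), Eng (0.69 ± 0.20), Cdh5 (0.60 ± 0.20) and Robo4 (0.24 ± 0.08). Pecam1, Vwf and Eng separated the groups, and Cdh5 and Robo4 did not. Ace was 9.01, 9.02, 9.01 and 9.14 in probiotic colitis and 9.39, 9.53, 9.56 and 9.25 in probiotic healthy mice. Every colitis mouse lay below every healthy one, and Ace fell by 0.39 ± 0.09 (adjusted p = 0.00241). The medians were 1.11 for adhesion molecules (1.30 without Sele), 0.29 for transcription factors, 0.24 for identity genes, 0.23 for receptors, 0.15 for lymphatic genes and 0.11 for ligands, beside -0.04 over all genes. All 6 pan-leukocyte markers rose here too (median 2.04), with array means of 9.40 to 10.03 in probiotic colitis and 7.66 to 8.01 in probiotic healthy mice. Macrophage markers rose in 7 of 9 (median 1.17), with array means of 8.86 to 9.44 in probiotic colitis and 8.08 to 8.41 in probiotic healthy mice, and fibroblast markers in 5 of 8 (median 0.43), with array means of 9.55 to 10.16 and 9.32 to 9.44 in the same order. Smooth muscle markers fell in 6 of 8 (median -0.45), with array means of 10.42 to 10.90 in probiotic colitis and 11.03 to 11.17 in probiotic healthy mice. The part of these cells in the rises of Fli1, Pdpn, Pdgfb and the other genes was not tested. Of 19 other endothelial genes 5 rose, including Ecscr (0.70 ± 0.13), Ets1 and S1pr1, and Clec14a fell. Of 19 other genes of the VEGF, angiopoietin and apelin pathways more fell than rose. Epas1 (-0.40 ± 0.10), Nr2f2 (-0.30 ± 0.10) and Ephb4 (-0.23 ± 0.08) were among those that fell and Hif1a (0.48 ± 0.15) among those that rose. Without the mice that stood apart, 22 of the 41 rose and 1 fell, against 15.5% and 18.2% of all genes. Leaving out 1 mouse lost the calls of Cdh5 without any one of probiotic colitis mice 3, 5 and 7 and probiotic healthy mice 5, 6 and 7 (adjusted p = 0.0529 to 0.0904), of Robo4 without any one of probiotic colitis mice 3, 5 and 7 and probiotic healthy mice 6 and 7 (adjusted p = 0.0687 to 0.133), of Pdgfb without any one of probiotic colitis mice 5 and 7 and probiotic healthy mouse 4 (adjusted p = 0.0637 to 0.0669) and of Apln without any one of probiotic colitis mouse 7 and probiotic healthy mouse 7 (adjusted p = 0.0558 to 0.0621).

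Whether colitis moved these genes more in probiotic than in untreated mice was tested as the difference of the 2 contrasts. None of the 41 genes passed in either direction by limma, and neither did any gene of the series (0% up and 0% down, smallest adjusted p = 0.185). Of all 16739 genes, 1446 had an unadjusted p under 0.05 by limma in either direction. Among them were 2 of the 41 with a positive difference, Vegfc and Apln (near background), and 1 with a negative one, Vegfa. Their differences were 0.38 ± 0.15 (adjusted p = 0.517), 0.42 ± 0.18 (adjusted p = 0.550) and -0.28 ± 0.13 (adjusted p = 0.575). The larger number of calls in probiotic mice is therefore not shown to be a larger effect of colitis.

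In colitis, probiotic mice had higher levels of some blood and lymphatic vessel genes than untreated mice. Of the 41 genes 8 rose and 0 fell in probiotic against untreated colitis, against 2.13% of all genes that rose and 0.669% that fell. At an unadjusted p under 0.05 by limma they numbered 26 upward and 0 downward, beside 2984 genes of all 16739 in either direction. With the arrays of these 2 groups fitted alone, 0 of the 41 rose by limma, the 8 having adjusted p of 0.177 to 0.245, while 4 rose with no filter on dim probe sets and 22 with array weights. The 8 came from 4 roles: 3 identity genes (Cd34, Cldn5 and Mmrn2), 2 receptors (Kdr and Tek), 1 transcription factor (Erg) and 2 lymphatic genes (Flt4 and Prox1). Cd34 was 8.59, 9.17, 8.73 and 8.79 in probiotic colitis mice, against 8.59, 7.77, 8.21 and 8.03 in untreated colitis mice. Untreated mouse 5 almost reached the lowest probiotic mouse, and Cd34 rose by 0.68 ± 0.15 (1.60-fold, adjusted p = 0.0281). Tek, the angiopoietin receptor, was 7.18, 7.68, 7.31 and 7.38 in probiotic colitis and 7.22, 6.53, 6.82 and 6.86 in untreated colitis mice. The same untreated mouse lay within the probiotic range, and the rise was 0.53 ± 0.14 (1.44-fold, adjusted p = 0.0436). Kdr was 8.42, 8.63, 8.44 and 8.36 in probiotic colitis mice, against 8.34, 7.62, 8.10 and 7.99 in untreated colitis mice. The groups met but did not overlap, mouse 6 being lowest, and Kdr rose by 0.45 ± 0.11 (1.37-fold, adjusted p = 0.0392). Erg was 7.11, 7.26, 7.01 and 7.07 in probiotic colitis and 7.00, 6.18, 6.81 and 6.65 in untreated colitis mice, a rise of 0.45 ± 0.12 (1.37-fold, adjusted p = 0.0495). Untreated mouse 6 was by far the lowest of the 8 mice for Erg, and for Mmrn2 (0.55 ± 0.13 (adjusted p = 0.0351)) it lay below all others too. Cldn5, the tight junction claudin of endothelium, was 6.23, 6.54, 6.19 and 6.20 in probiotic colitis mice, against 6.12, 5.74, 5.79 and 5.68 in untreated colitis mice. Probiotic mouse 5 exceeded the other 7, and Cldn5 rose by 0.46 ± 0.11 (1.37-fold, adjusted p = 0.0327).

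The lymphatic receptor gene Flt4 measured 7.58, 8.21, 7.85 and 7.50 in probiotic colitis mice and 7.26, 6.94, 7.34 and 7.02 in untreated colitis mice. The groups did not overlap, and Flt4 rose by 0.64 ± 0.15 (1.56-fold, adjusted p = 0.0296). Prox1 was 6.30, 7.20, 6.78 and 6.43 in probiotic colitis and 6.20, 5.98, 6.20 and 6.21 in untreated colitis mice. Here probiotic mice 5 and 7 were high and mice 3 and 8 just above the untreated range, and the rise was 0.53 ± 0.14 (1.45-fold, adjusted p = 0.0415). The ligand of Flt4, Vegfc, was 8.06, 7.99, 8.05 and 7.93 in probiotic colitis mice, against 7.67, 7.52, 7.47 and 7.84 in untreated colitis mice. Vegfc did not overlap and missed the threshold narrowly (0.38 ± 0.10 (adjusted p = 0.0509)). Lyve1 (0.80 ± 0.23) and Pdpn (0.30 ± 0.14) did not pass, nor did Mmrn1 (-0.13 ± 0.10), so 2 of 5 lymphatic genes rose. The median was 0.53 for the 5 lymphatic genes and 0.46 for the 15 endothelial identity genes. None of the 6 adhesion molecules passed by limma, 2 having an unadjusted p under 0.05, although their median was 0.39, and Vcam1 (0.73 ± 0.25) and Selp (0.62 ± 0.40) differed by more than most genes that passed, with larger standard errors. The 3 genes with the smallest p downward were Vegfa (-0.18 ± 0.09 (adjusted p = 0.327)), Mmrn1 and Nos3 (-0.01 ± 0.10). Of 19 other genes of these pathways only the co-receptor gene Nrp1 (0.50 ± 0.11) and the pericyte and fibroblast gene Pdgfrb (0.42 ± 0.11) rose. Others were lower without passing, Notch4 (-0.27 ± 0.08 (adjusted p = 0.0757)) having the smallest p among them. The lymphatic matrix gene Reln (0.63 ± 0.15) rose alone among 7 other lymphatic and venule genes. None of the 19 other endothelial genes passed. Tm4sf1 (0.45 ± 0.13 (adjusted p = 0.0678)) came closest, and Gpihbp1 (-0.32 ± 0.10) was lower.

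Other cell types moved in the same comparison. Macrophage markers rose in 7 of 9 genes (median 0.88), with array means of 8.86 to 9.44 in probiotic colitis and 7.87 to 9.0 in untreated colitis mice. Fibroblast markers rose in 3 of 8 (median 0.47), with array means of 9.55 to 10.16 in probiotic colitis and 8.96 to 9.64 in untreated colitis mice, and smooth muscle markers in 0 of 8 (median 0.02, 0 with an unadjusted p under 0.05 by limma). Of the leukocyte partners of the adhesion molecules 4 of 7 rose (median 0.83), namely Selplg (1.22 ± 0.27), Itgal (0.83 ± 0.22), Itga4 (0.70 ± 0.19) and Itgb7 (0.65 ± 0.13), while 0 of 6 pan-leukocyte markers passed (median 0.66, 4 with an unadjusted p under 0.05 by limma). The part of these cells in the rise of genes they share, such as Cd34 in fibroblasts, was not tested. The calls depended on single mice: 0 of the 41 genes rose without untreated colitis mouse 6, without probiotic colitis mouse 5 or without probiotic colitis mouse 7, 1 without untreated colitis mouse 10, 3 without probiotic colitis mouse 3, 12 without untreated colitis mouse 7, 18 without untreated colitis mouse 5 and 20 without probiotic colitis mouse 8. Each of the 8 genes kept its direction in all of these, with adjusted p where the call was lost of 0.0501 to 0.191. Without the 3 mice that stood apart 9 of the 41 rose, against 2.74% of all genes, and Cldn5 (adjusted p = 0.0541), Tek (0.0715), Erg (0.0911) and Prox1 (0.0557) were not among them.

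**Figure D3:**
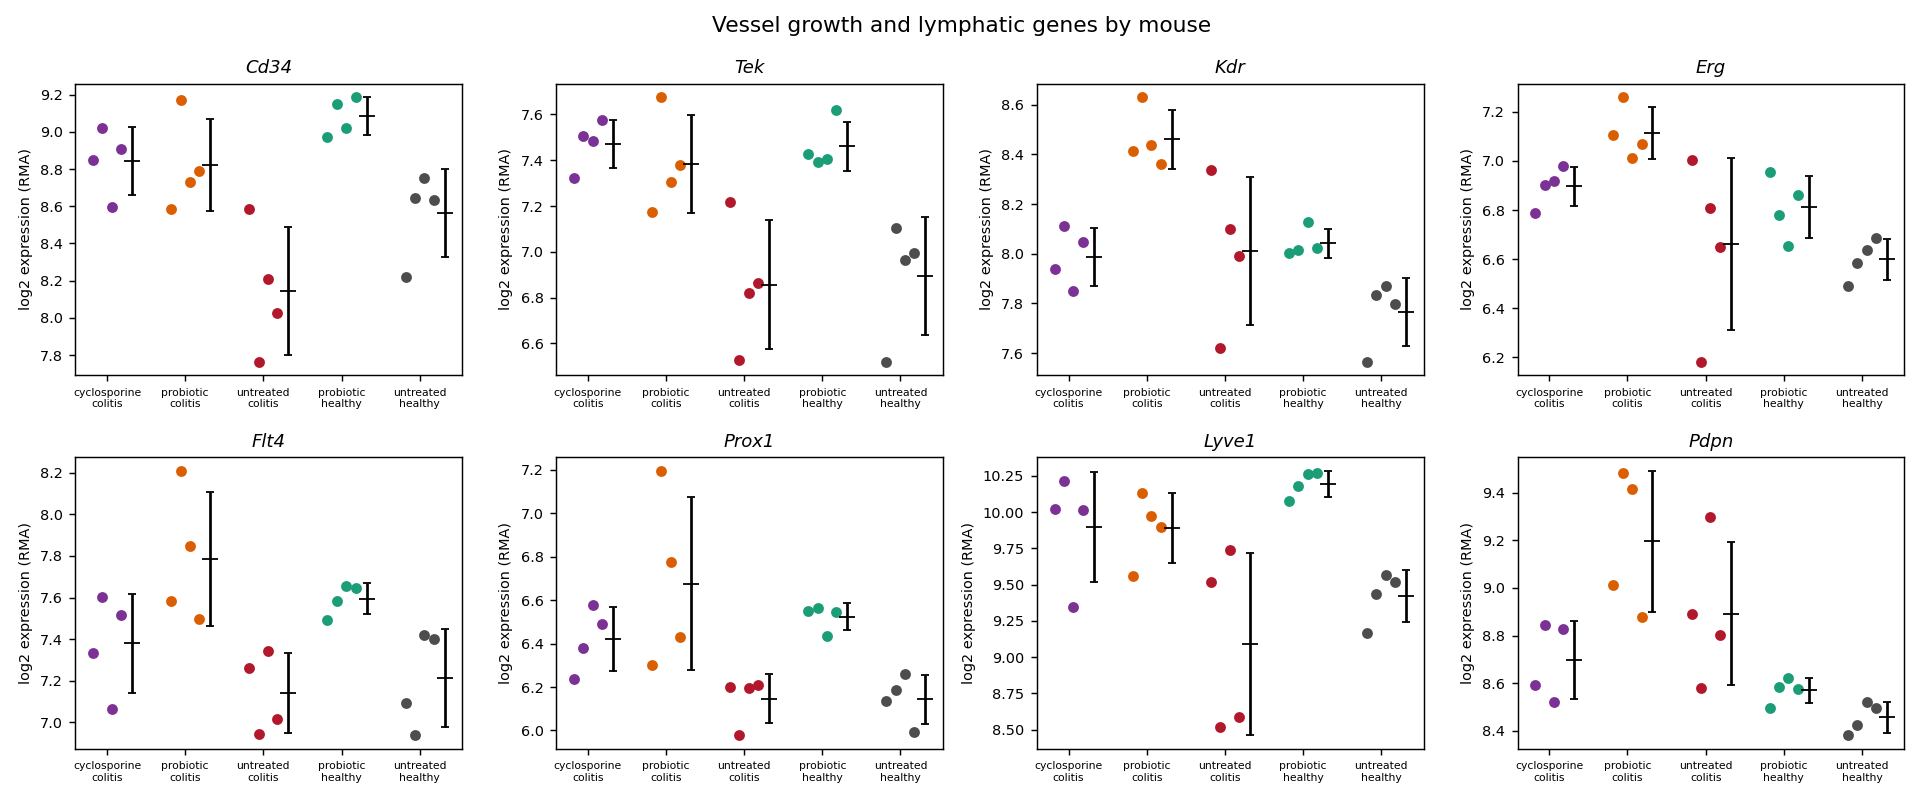
Log2 expression of 4 blood vessel genes (Cd34, Tek, Kdr and Erg) and 4 lymphatic genes (Flt4, Prox1, Lyve1 and Pdpn) by mouse, points in the order of the mouse numbers of each group, with the group mean and SD (n = 4) as a bar beside them. Cd34 and Tek are low in untreated colitis against both treated colitis groups, untreated colitis mouse 6 is lowest of its group for each of the 8, Lyve1 included, and the axes differ between genes and do not start at 0.

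Against untreated colitis, cyclosporine A colitis showed a lower level of the adhesion molecule Icam1 and higher levels of the vessel growth receptor Tek, of Cd34, of Lyve1 and of Ace. Of the 41 genes 4 rose and 1 fell in cyclosporine against untreated colitis, against 7.58% of all genes that rose and 5.58% that fell. Both counts are near these shares, so they show no change particular to these genes. With these groups fitted alone, only Cd34 and Tek passed. Cd34 was 8.85, 9.02, 8.59 and 8.91 in cyclosporine colitis mice, against 8.59, 7.77, 8.21 and 8.03 in untreated colitis mice. The groups all but met at cyclosporine mouse 9 and untreated mouse 5, and Cd34 rose by 0.70 ± 0.15 (1.62-fold, adjusted p = 0.00618). Tek was 7.32, 7.50, 7.48 and 7.57 in cyclosporine colitis and 7.22, 6.53, 6.82 and 6.86 in untreated colitis mice. It rose by 0.61 ± 0.14 (1.53-fold, adjusted p = 0.00629) with no overlap. Lyve1 was 10.02, 10.21, 9.34 and 10.02 in cyclosporine colitis mice, against 9.52, 8.52, 9.74 and 8.59 in untreated colitis mice. Cyclosporine mouse 9 lay within the untreated range, and Lyve1 rose by 0.81 ± 0.23 (1.75-fold, adjusted p = 0.0248). Ace was 9.30, 9.41, 9.32 and 9.13 in cyclosporine colitis and 8.85, 8.81, 9.15 and 9.05 in untreated colitis mice. The overlap was slight, and Ace rose by 0.32 ± 0.09 (1.25-fold, adjusted p = 0.0210). Icam1 was 7.28, 7.29, 6.81 and 7.57 in cyclosporine colitis mice, against 8.08, 7.24, 8.30 and 8.14 in untreated colitis mice. Only untreated mouse 6 lay among the cyclosporine mice, and Icam1 fell by 0.70 ± 0.22 (1.63-fold lower, adjusted p = 0.0438).

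Selp, at 6.40, 6.57, 6.42 and 6.80 in cyclosporine colitis mice, had the most negative difference of the 41 genes but missed the threshold (-1.20 ± 0.40 (adjusted p = 0.0556)). The differences of Vcam1 (-0.53 ± 0.25), Madcam1 (-0.39 ± 0.22), Sele (-0.34 ± 0.17) and Icam2 (-0.27 ± 0.17) were negative as well and did not pass, and the median over the 6 adhesion molecules was -0.46 (-0.53 without Sele), beside 0.24 for lymphatic genes, -0.07 for identity genes and -0.01 for all genes. Of the leukocyte partners 0 of 7 passed by limma (median -0.63, 5 with an unadjusted p under 0.05), and 4 of 6 pan-leukocyte markers fell (median -0.97), with array means of 7.86 to 8.99 in cyclosporine colitis and 8.44 to 9.96 in untreated colitis mice. Smooth muscle markers rose in 6 of 8 (median 0.40), with array means of 10.69 to 11.29 in cyclosporine colitis and 10.42 to 10.79 in untreated colitis mice, while 1 of 8 fibroblast markers fell (median -0.19) and 0 of 9 macrophage markers passed (median 0.06, 0 with an unadjusted p under 0.05 by limma). The part of these cells in the differences was not tested. Among the other pathway genes Ets1 (-0.61 ± 0.19) and Notch4 (-0.39 ± 0.08) fell and Nrp2 rose (0.34 ± 0.10). The calls of Cd34 and Tek held in all 8 fits without 1 mouse. Those lost were of Icam1 without any one of cyclosporine colitis mice 4, 7 and 9 and untreated colitis mice 5, 7 and 10 (adjusted p = 0.0756 to 0.132), of Lyve1 without any one of cyclosporine colitis mice 4, 7 and 10 and untreated colitis mice 6 and 10 (adjusted p = 0.0503 to 0.0849) and of Ace without any one of cyclosporine colitis mouse 7 and untreated colitis mice 5 and 6 (adjusted p = 0.0559 to 0.0730). With these 2 groups fitted alone Cd34 and Tek passed, and Icam1 (adjusted p = 0.106), Lyve1 (0.136) and Ace (0.0808) did not. Without untreated colitis mouse 6 alone, 2 genes rose and 4 fell, without cyclosporine mouse 7 alone 2 rose, and without the 3 mice that stood apart 3 rose and 7 fell, against 9.82% and 8.51% of all genes.

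Set against probiotic colitis, cyclosporine colitis had lower levels of many of these genes, with large differences among the adhesion molecules. Of the 41 genes 20 fell and 0 rose, against 12% of all genes that fell and 11.3% that rose, with 1 gene, Ace, positive at an unadjusted p under 0.05 by limma (0.25 ± 0.09 (adjusted p = 0.0520)). The 5 adhesion molecules other than Sele fell, and without Sele the count over the remaining 40 genes was 19. Vcam1 was 8.12, 8.25, 7.71 and 8.50 in cyclosporine colitis mice, all below the 9.05 to 9.59 of probiotic colitis mice, with a difference of -1.26 ± 0.25 (2.40-fold lower, adjusted p = 0.00125). Icam1 stood at 6.81 to 7.57 in cyclosporine colitis and 7.66 to 8.70 in probiotic colitis mice, the highest of one group all but meeting probiotic mouse 8, and differed by -1.19 ± 0.22 (2.28-fold lower, adjusted p = 0.000977). Selp stood at 6.40 to 6.80 in cyclosporine colitis and 7.11 to 8.87 in probiotic colitis mice and differed by -1.81 ± 0.40 (3.51-fold lower, adjusted p = 0.00321). Sele was 5.06, 4.98, 4.91 and 4.81 in cyclosporine colitis mice, all under the filter level of 5.30, as was probiotic mouse 8, and was at least 1.22-fold lower than in probiotic colitis mice by the same bound (limma adjusted p = 0.0117). Icam2 (-0.55 ± 0.17 (adjusted p = 0.0247)) and Madcam1 (-0.63 ± 0.22 (adjusted p = 0.0436)) fell with overlapping groups. The median was -0.91 over the 6 and -1.19 without Sele. Fli1 was 8.83, 8.80, 8.54 and 9.41 in cyclosporine colitis mice, against 10.26, 10.29, 10.23 and 9.86 in probiotic colitis mice. The groups were apart by a clear gap, and Fli1 fell with a difference of -1.26 ± 0.22 (2.40-fold lower, adjusted p = 0.000596).

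Identity genes fell in 9 of 15, with a median of -0.31. Eng (-0.79 ± 0.20 (adjusted p = 0.00628)), Pecam1 (-0.65 ± 0.17 (adjusted p = 0.00910)), Vwf (-0.47 ± 0.12 (adjusted p = 0.00733)) and Esam (-0.38 ± 0.09 (adjusted p = 0.00396)) had the smallest p among them, and Plvap, Cdh5, Egfl7, Mmrn2 and Robo4 fell by smaller or less precise amounts, between -0.25 and -0.65. Eng was 8.22, 8.49, 8.31 and 8.51 in cyclosporine colitis and 9.32, 9.38, 9.38 and 8.63 in probiotic colitis mice, probiotic mouse 8 lying close above the cyclosporine mice. The receptors Kdr (-0.47 ± 0.11 (adjusted p = 0.00503)) and Aplnr (-0.55 ± 0.13 (adjusted p = 0.00457)) fell, whereas Tek (0.09 ± 0.14), Tie1 (-0.23 ± 0.13) and Flt1 (-0.11 ± 0.12) did not pass. Pdpn (-0.50 ± 0.14 (adjusted p = 0.0117)) was the single lymphatic gene of 5 that fell, Lyve1 differing by 0.01 ± 0.23 and Flt4 by -0.41 ± 0.15, and Pdgfb (-0.30 ± 0.09) the single ligand of 6. Leukocyte genes again moved the same way: 6 of 7 leukocyte partners (median -1.46) and all 6 pan-leukocyte markers (median -1.55) fell, with array means of the markers of 7.86 to 8.99 in cyclosporine colitis and 9.40 to 10.03 in probiotic colitis mice. Macrophage markers fell in 6 of 9 (median -0.93). Fibroblast markers fell in 5 of 8 and smooth muscle markers rose in 7 of 8 (medians -0.59 and 0.43), and the part of these cells was not tested. With 1 mouse left out the number of genes that fell was 12 without probiotic colitis mouse 5 or mouse 7 and between 14 and 24 without any other, and 1 gene, Ace, rose without probiotic mouse 8 or cyclosporine mouse 10. The calls lost in this way were among those of Cdh5, Egfl7, Robo4, Mmrn2, Pdpn, Icam2, Sele, Madcam1 and Pdgfb, at adjusted p of 0.0501 to 0.147. Without the 3 mice that stood apart 24 fell and 1 rose, against 14.6% and 15.5% of all genes.

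Against untreated healthy mice, cyclosporine colitis mice showed a higher level of 3 of the 41 genes and a lower level of none, against 2.64% of all genes that rose and 3.38% that fell. At an unadjusted p under 0.05 by limma they numbered 8 upward and 0 downward, beside 4017 genes of all 16739 in either direction. These 8 are no larger a share of the 41 than that of all genes. Vcam1, at 7.71 to 8.50 in cyclosporine colitis and 7.01 to 7.23 in untreated healthy mice, rose by 1.00 ± 0.25 (2.01-fold, adjusted p = 0.0245), the one adhesion molecule of 6 to do so. Tek, at 7.32 to 7.57 in cyclosporine colitis and 6.52 to 7.11 in untreated healthy mice, rose by 0.57 ± 0.14 (1.49-fold, adjusted p = 0.0212). Ptprb, the phosphatase that restrains Tek signalling, was 7.93, 8.18, 8.22 and 8.27 in cyclosporine colitis mice, against 7.29, 7.77, 7.73 and 7.81 in untreated healthy mice, and rose by 0.50 ± 0.14 (1.42-fold, adjusted p = 0.0407). Healthy mouse 2 was the lowest for Tek, Ptprb and Vcam1 alike. The differences of Icam1 (0.19 ± 0.22), Selp (0.25 ± 0.40), Madcam1 (0.32 ± 0.22), Icam2 (-0.01 ± 0.17) and Sele (-0.05 ± 0.17) did not pass. Colitis and cyclosporine A differ together in this comparison, and with no healthy cyclosporine group they cannot be told apart. Macrophage markers rose in 2 of 9 (median 0.56) and pan-leukocyte markers in 1 of 6 (median 0.64), with array means of the pan-leukocyte markers of 7.86 to 8.99 in cyclosporine colitis and 7.51 to 7.85 in untreated healthy mice, and their part was not tested. No gene of the 41 passed without untreated healthy mouse 2 or without cyclosporine mouse 10, and 1 passed without untreated healthy mouse 7 or cyclosporine mouse 7. The lost calls were of Tek without any one of cyclosporine colitis mouse 10 and untreated healthy mouse 2 (adjusted p = 0.0539 to 0.0724), of Vcam1 without any one of cyclosporine colitis mice 4, 7 and 10 and untreated healthy mice 2 and 7 (adjusted p = 0.0518 to 0.0693) and of Ptprb without any one of cyclosporine colitis mice 7, 9 and 10 and untreated healthy mice 2, 6 and 7 (adjusted p = 0.0568 to 0.136). Without the 3 mice that stood apart 4 genes rose, against 2.73% of all genes.

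**Figure D4:**
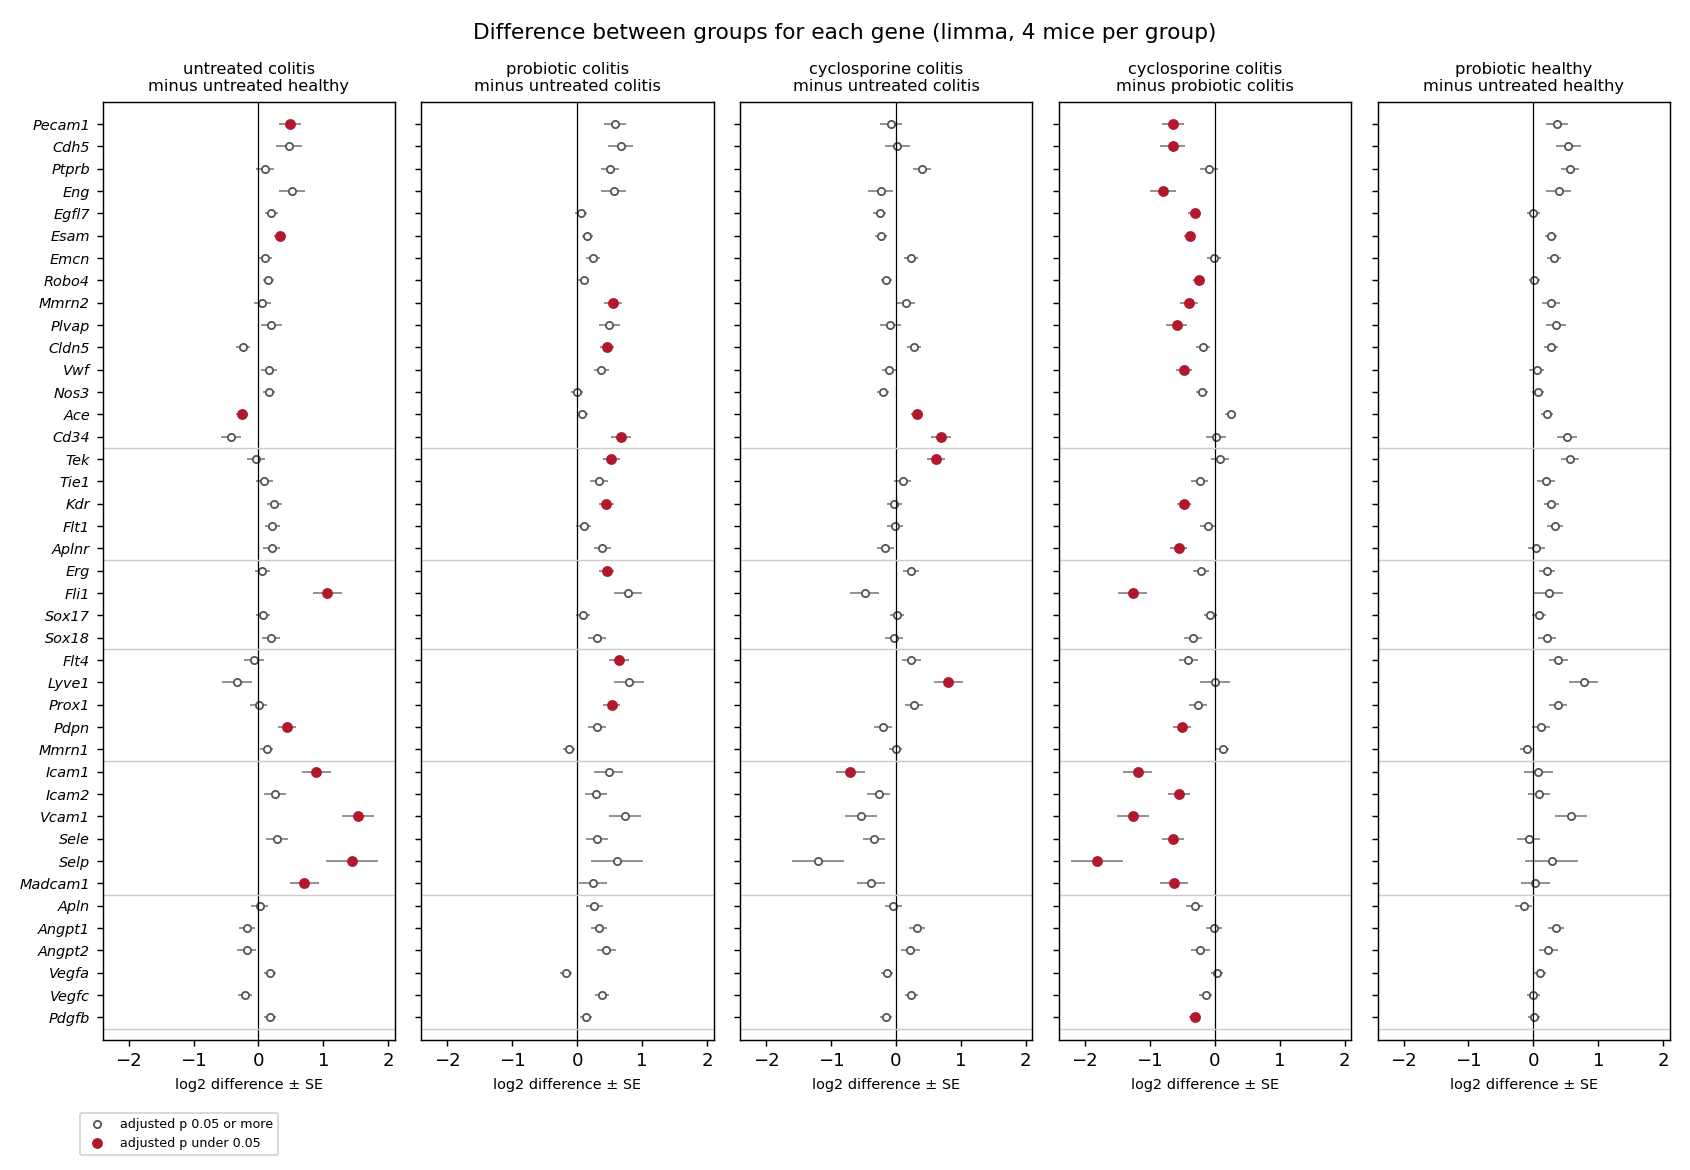
Log2 difference ± SE of the limma fit (4 mice per group) for each of the 41 genes, grouped by role from top to bottom, in 5 comparisons, with filled points where the adjusted p was under 0.05. The 6 adhesion molecules lie right of 0 in untreated colitis against untreated healthy mice, 4 of them filled, all 6 lie left of 0 in cyclosporine against probiotic colitis, Sele near background in cyclosporine mice, and no gene passes in probiotic against untreated healthy mice.

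In healthy mice the probiotic mixture was not shown to change any of these genes. None of the 41 passed in either direction by limma, as for all genes (0% up and 0% down, smallest adjusted p = 0.206), while 17 of the 41 were higher and 0 lower at an unadjusted p under 0.05, beside 1511 genes of all 16739 in either direction. The differences with the smallest p upward were those of Tek (0.56 ± 0.14 (adjusted p = 0.301)), Ptprb (0.57 ± 0.14 (adjusted p = 0.301)) and Cd34 (0.52 ± 0.15 (adjusted p = 0.371)). Tek was 7.43, 7.39, 7.41 and 7.62 in probiotic healthy mice, against 6.52, 7.11, 6.97 and 6.99 in untreated healthy mice. Cd34 was 8.98, 9.15, 9.02 and 9.19 in probiotic healthy and 8.22, 8.64, 8.75 and 8.63 in untreated healthy mice. In both genes every probiotic mouse lay above every untreated one, and untreated mouse 2 was lowest. Lyve1, the lymphatic gene with the smallest p, was 10.08, 10.18, 10.26 and 10.27 in probiotic healthy mice, against 9.17, 9.44, 9.57 and 9.52 in untreated healthy mice (0.77 ± 0.23 (adjusted p = 0.371)). Its groups did not overlap either. Downward the smallest p were those of Apln (-0.15 ± 0.13), Mmrn1 (-0.11 ± 0.10) and Sele (-0.08 ± 0.17), 3 of the 4 genes near background. The median was 0.38 for lymphatic genes, 0.28 for identity genes, 0.28 for receptors, 0.21 for transcription factors, 0.08 for adhesion molecules and 0.06 for ligands. Without the 3 mice that stood apart, or without any one of the 8 mice, none passed. With these 2 groups fitted alone, Lyve1 (adjusted p = 0.0310) and Vcam1 (0.0310) rose, both named after their values were seen. Of the marker lists of leukocytes, macrophages, fibroblasts and smooth muscle none had a gene that passed by limma, 3 fibroblast and 1 macrophage marker having an unadjusted p under 0.05. The comparisons of probiotic colitis with untreated colitis and with probiotic healthy mice share arrays with this one and with each other, as the cyclosporine comparisons share theirs, so their values are set side by side and not counted as repeats.

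Lymphatic and adhesion genes were also set against the endothelial identity genes within each array. The measure was the mean of one group of genes minus the mean of the 15 identity genes. Only the change of this difference between mice can be read, since it compares different probe sets. For the adhesion molecules it averaged -1.08 ± 0.18 in cyclosporine colitis, -0.37 ± 0.30 in probiotic colitis, -0.45 ± 0.32 in untreated colitis, -1.29 ± 0.10 in probiotic healthy and -1.17 ± 0.10 in untreated healthy mice (SD, n = 4 each). The ranges were -1.28 to -0.87 in cyclosporine colitis, -0.82 to -0.16 in probiotic colitis, -0.78 to -0.02 in untreated colitis, -1.40 to -1.16 in probiotic healthy and -1.27 to -1.04 in untreated healthy mice. Every probiotic and untreated colitis mouse thus lay above every cyclosporine colitis and every healthy mouse, mouse 6 of untreated colitis and mouse 8 of probiotic colitis included, and cyclosporine colitis overlapped both healthy groups. Without Sele the ranges were -0.99 to -0.45 in cyclosporine colitis, -0.39 to 0.27 in probiotic colitis, -0.49 to 0.42 in untreated colitis, -1.11 to -0.79 in probiotic healthy and -1.01 to -0.78 in untreated healthy mice, so that untreated and cyclosporine colitis then overlapped and the probiotic and untreated colitis mice still lay above the healthy ones. For the lymphatic genes the difference averaged -0.17 ± 0.13 in cyclosporine colitis, -0.27 ± 0.13 in probiotic colitis, -0.34 ± 0.08 in untreated colitis, -0.21 ± 0.04 in probiotic healthy and -0.24 ± 0.08 in untreated healthy mice. Cyclosporine mice 4, 7 and 10, at -0.12, -0.06 and -0.14, lay above every untreated colitis mouse (-0.42 to -0.26), and mouse 9, at -0.35, among them. This mean pools genes that differed in opposite directions between these groups, Lyve1 by 0.81 ± 0.23 and Pdpn by -0.20 ± 0.14, and Mmrn1 near background. The mean of the 15 identity genes itself was 7.61 to 7.79 in cyclosporine colitis, 7.84 to 8.17 in probiotic colitis, 7.32 to 7.89 in untreated colitis, 7.78 to 7.83 in probiotic healthy and 7.35 to 7.60 in untreated healthy mice, with the widest spread in untreated colitis. That of the 5 lymphatic genes was 7.31 to 7.73, 7.56 to 8.06, 7.05 to 7.56, 7.54 to 7.63 and 7.20 to 7.39 in the same order of groups. No p-value is given for these means, whose genes were chosen by name with earlier results known.

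**Figure D5:**
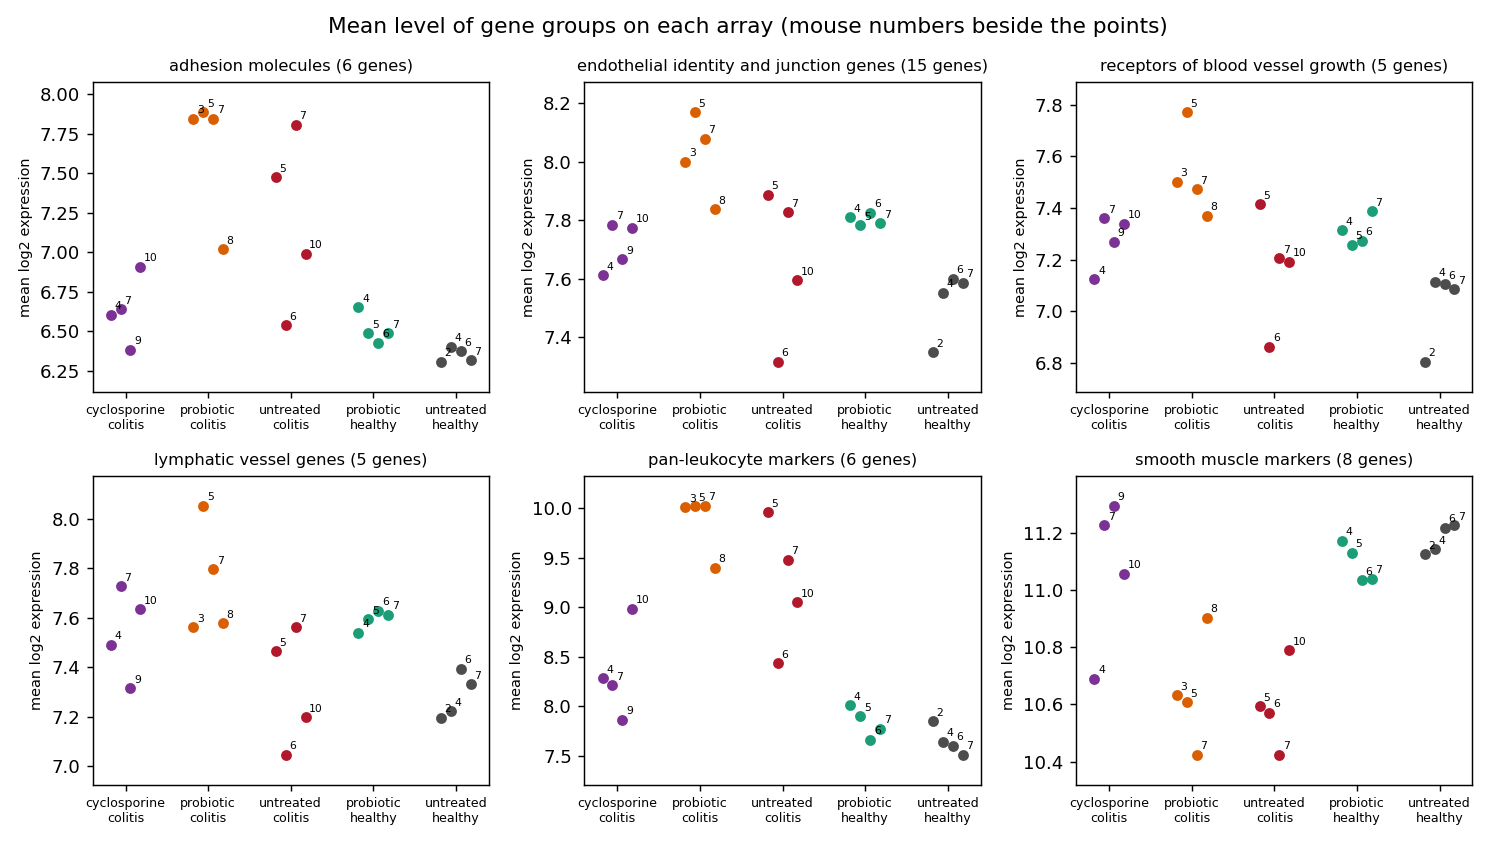
Mean log2 expression on each array of the adhesion molecules, endothelial identity genes, growth receptors, lymphatic genes, pan-leukocyte markers and smooth muscle markers, with mouse numbers beside the points. The adhesion means of probiotic colitis mice 3, 5 and 7 lie between 7.84 and 7.89 and that of mouse 8 at 7.02, and adhesion and pan-leukocyte means order the colitis groups alike, with untreated colitis mouse 6 lowest of its group in both.

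Of the 6 secreted ligands, Apln and Pdgfb passed in probiotic colitis against probiotic healthy mice and Pdgfb in cyclosporine against probiotic colitis, and the other 4 in no comparison. Vegfa, the main blood vessel growth factor, which gut epithelium and macrophages also make, averaged 9.41 ± 0.20 in cyclosporine colitis, 9.37 ± 0.10 in probiotic colitis, 9.55 ± 0.05 in untreated colitis, 9.48 ± 0.16 in probiotic healthy and 9.38 ± 0.09 in untreated healthy mice (SD, n = 4 each). It passed in none of the 8 comparisons by limma. Vegfc averaged 7.87 ± 0.16, 8.01 ± 0.06, 7.63 ± 0.17, 7.83 ± 0.13 and 7.83 ± 0.19 in the same order of groups, lowest in untreated colitis. Angpt1, the agonist of Tek, averaged 6.01 ± 0.16, 6.02 ± 0.19, 5.68 ± 0.25, 6.21 ± 0.17 and 5.85 ± 0.13, and Angpt2, its context-dependent antagonist, 5.82 ± 0.09, 6.04 ± 0.18, 5.60 ± 0.35, 6.00 ± 0.27 and 5.78 ± 0.14, in that order of groups, and neither passed in any comparison. Of the receptors, Tie1 and Flt1 passed in none of the 8 comparisons, and of the remaining genes Emcn, Sox17, Sox18, Nos3 and Mmrn1 passed in none.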

How the data were processed

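Total RNA of the middle colon was measured on 20 Affymetrix arrays, 1 per mouse, and the series states biological replicates, 4 in each of 5 groups read from the sample titles. The deposited values are log2 expression per probe set, made with RMA by the authors per the submitters' processing notes, with the version and annotation not given in the sources used here, and were used without further normalization. Arrays have no read depth, and their number limits the precision. Of 29195 probe sets with values, 22360 had 1 gene symbol, 1013 several and 5822 none. A probe set was kept if it exceeded 5.30, the 25th percentile, on at least 4 arrays, and a gene's brightest probe set by mean represented it. Group means were fitted over all 20 arrays with lmFit and eBayes (R 4.3.3, limma 3.58.1, 15 residual and 4.03 prior degrees of freedom), and p-values adjusted by Benjamini-Hochberg over 16739 genes in each of 8 comparisons. The fit was tested on simulated data. The genes and lists were chosen with earlier results of these data known. Full values are given for up to 12 genes per direction with the smallest p among those that pass, or for 3 where none pass, and up to 4 genes are named per other list. Mice were housed 5 per cage, and the cage of each is not analysed here. Of 5 erythroid markers none passed the filter. Alternatives were other filters, quantile normalization, median centring, trend and robust moderation, array weights, animal number as a block, averaged probe sets, the compared groups alone, and leaving out 1 or 3 arrays.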

Additional observations from a re-analysis of the deposited data

Results flagged for a closer look

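In 17 of 205 combinations of a gene and a group, and in 2 of 30 means of a role, 1 of the 4 mice lay far from the other 3 by Dixon's criterion, which chance meets in about 1 of 20 groups. Probiotic colitis mouse 8 held 7 of these 19. Its value was 7.66 for Icam1 (the other 3 mice between 8.65 and 8.70), 7.11 for Selp (8.64 to 8.87), 9.86 for Fli1 (10.23 to 10.29), 8.63 for Eng (9.32 to 9.38), 7.17 for Egfl7 (7.46 to 7.51) and 9.14 for Ace (9.01 to 9.02, above its group), and its mean over the 6 adhesion molecules was 7.02 (7.84 to 7.89). The cause was not tested. Untreated healthy mouse 2 was low for Ptprb, at 7.29 (7.73 to 7.81), and for the mean of the 5 growth receptors, at 6.80 (7.08 to 7.11). Untreated colitis mouse 6 was low for Prox1, at 5.98 (6.20 to 6.21).

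Probiotic healthy mouse 6 was high for Kdr, at 8.13 (8.0 to 8.02), and low for Fli1, at 8.36 (8.60 to 8.63), for Prox1, at 6.43 (6.55 to 6.57), and for Angpt2, at 5.61 (6.08 to 6.17). High single values were those of Tek in probiotic healthy mouse 7, at 7.62 (7.39 to 7.43), of Cldn5 in probiotic colitis mouse 5, at 6.54 (6.19 to 6.23), of Sox17 in probiotic colitis mouse 7, at 6.76 (6.57 to 6.61), and of Vegfa in untreated healthy mouse 4, at 9.51 (9.33 to 9.34). Sox17 was low in cyclosporine colitis mouse 4, at 6.13 (6.67 to 6.76). No gene of the 41 met the criterion of a difference between the colitis contrasts of probiotic and untreated mice.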

How the results depend on the processing

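Under the alternatives, 240 counts of called genes stayed within 1.5 times the reported count and 64 did not. Many of the 240 were reported counts of 0 that stayed 0, among them every count for the difference of the colitis contrasts. They say little about the stability of the counts above 0. For untreated colitis against untreated healthy mice, the 8 genes that rose became 4 with the replicate block, 5 with the compared groups alone and 13 without the 3 mice that stood apart, and ranged 5 to 13 with 1 mouse left out. The 1 that fell became 0 with no filter, with arrays centred on their median, with the compared groups alone and without the 3 mice, 2 with the stricter filter and with quantile normalization again, and 3 with array weights, and ranged 0 to 3 with 1 mouse left out. For probiotic against untreated healthy mice, 2 genes rose with the compared groups alone. For probiotic against untreated colitis, the 8 that rose became 4 with no filter, 22 with array weights, 3 with the replicate block and 0 with the compared groups alone, and ranged 0 to 20 with 1 mouse left out. For cyclosporine against untreated colitis, the 4 that rose became 2 with the compared groups alone and ranged 2 to 5 with 1 mouse left out, and the 1 that fell became 0 with no filter, with trend and robust moderation and with the compared groups alone, 2 with the stricter filter and with array weights and 7 without the 3 mice, and ranged 0 to 4. For cyclosporine against probiotic colitis, the count that rose was 1 in place of 0 with the stricter filter, quantile normalization again, median centring, trend and robust moderation, array weights, the compared groups alone and without the 3 mice, and ranged 0 to 1, and the 20 that fell became 10 with the replicate block and ranged 12 to 24. For cyclosporine colitis against untreated healthy mice, the 3 that rose became 5 with array weights and 0 with the replicate block, and ranged 0 to 3. Differences that changed sign were all close to 0. That of Nos3 in probiotic against untreated colitis (-0.005 as reported) was 0.010 with array weights, 0.20 with the replicate block and 0.085 without the 3 mice, and ranged -0.11 to 0.091 with 1 mouse left out. In cyclosporine colitis against untreated healthy mice, Nos3 was 0.015 without the 3 mice and ranged -0.089 to 0.015 with 1 mouse left out, Egfl7 ranged -0.11 to 0.040, and Sele was 0.061 with the replicate block. The cause of these shifts was not tested, except that leaving out mice or groups leaves fewer arrays.

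The replicate block uses the animal number, which does not pair the mice: over 20 pairs of mice of the same number in different groups, the correlation of their deviations from the group means lay between -0.19 and 0.43, with a median of 0.02, and exceeded 0.1 in 5. With 4 arrays per group and dim probe sets near 5.30, small changes of Sele, Mmrn1, Apln and Angpt2 could go undetected.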
